A study of Mus musculus with 6 samples.

Results

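Ribosome biogenesis factors are the proteins that transcribe, modify, cut and fold ribosomal RNA and join it to ribosomal proteins. RNA polymerase I makes the long ribosomal RNA precursor in the nucleolus. Small nucleolar ribonucleoproteins (snoRNPs) modify the precursor, box C/D particles by methylation and box H/ACA particles by pseudouridylation. The small subunit processome then assembles on it, and separate sets of factors mature the large and the small subunit. The output of this pathway sets how fast a dividing cell can build new protein, and in skeletal muscle it is known to be high in proliferating myoblasts and to decline as they differentiate.

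The 48 genes described here were listed by name from these steps and were then looked up on the array. The list was chosen with earlier results of these data known. Each of the 48 was measured, out of 18193 genes with at least 1 probe set of their own, and each was bright enough to be tested among 10941 genes. Myoblasts came from the hindlimbs of C57BL/6JRj mice, males aged 9 to 15 weeks, and the labels name no genetic change. All were kept in Ham's F-10 with serum, bFGF and antibiotics for 72 hours, and 3 samples were plated on fibronectin and 3 on collagen I, which served as the reference. Fibronectin and collagen I are matrix proteins that cells bind through different integrins, and the comparison asked how the coating altered expression. The labels do not say how many animals were used or whether the samples were separate cultures, so each p-value rests on the scatter of these 6 samples alone, and that scatter may be technical.

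The label of the cells was checked against marker genes. Of 8 myoblast markers 7 lay above the brightness filter of 2.33, a log2 signal equal to the median probe set, among them Myod1, Myf5 and Pax7 with collagen means of 10.1, 8.41 and 8.89. Of these 7 Cdh15 rose by 0.24 and Des and Ncam1 fell by 0.23 and 0.16. The endothelial markers lay below the filter in 6 of 6 cases, and Ptprc of blood cells had collagen and fibronectin means of 0.47 and 0.53. Of 7 fibroblast markers 5 lay below the filter, and of the other two Col3a1 was bright on both coatings and rose (9.33 and 9.54), whereas Thy1 fell (2.71 and 2.38). Of 6 blood and macrophage markers 2 passed the filter and Cd68 fell by 1.28, with a list mean of 1.90 to 2.07 in collagen samples and 1.66 to 1.84 in fibronectin samples. Of 3 adipocyte markers Fabp4 alone passed the filter and fell by 2.10, with Adipoq and Lep below it, and the list mean was 1.96 to 2.12 in collagen samples and 1.30 to 1.41 in fibronectin samples. The part of these markers in the results that follow was not tested.

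The promoters of several of these genes are shown here, because they carry a short sequence that was frequent among the 48 and because their genes span the range of responses described further on. Each run is the 250 bases before the gene's start in RefSeq (GRCm38.p6), on the gene's own strand and 5′ to 3′. Capitals mark CGGAAG or its reverse complement CTTCCG, the core bound by Ets transcription factors. Rrp9 and Ddx10 rose on fibronectin, Nhp2 fell, and Mphosph10 and Imp3 belong to the same complex but had unlike changes. The regions are chr9:106477059-106477308 (plus strand) for Rrp9, chr9:53248113-53248362 (minus strand) for Ddx10, chr11:51619523-51619772 (plus strand) for Nhp2, chr7:64392237-64392486 (minus strand) for Mphosph10 and chr9:56937250-56937499 (plus strand) for Imp3.
Rrp9: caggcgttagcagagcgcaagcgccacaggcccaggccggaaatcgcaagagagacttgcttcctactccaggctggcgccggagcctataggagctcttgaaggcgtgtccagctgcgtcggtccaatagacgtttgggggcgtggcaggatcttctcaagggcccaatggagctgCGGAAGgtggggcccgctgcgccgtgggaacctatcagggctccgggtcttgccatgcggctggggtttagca
Ddx10: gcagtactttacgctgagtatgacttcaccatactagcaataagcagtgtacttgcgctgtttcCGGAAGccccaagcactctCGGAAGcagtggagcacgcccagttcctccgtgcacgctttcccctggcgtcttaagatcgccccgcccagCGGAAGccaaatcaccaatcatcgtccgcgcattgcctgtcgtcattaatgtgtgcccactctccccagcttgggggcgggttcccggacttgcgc
Nhp2: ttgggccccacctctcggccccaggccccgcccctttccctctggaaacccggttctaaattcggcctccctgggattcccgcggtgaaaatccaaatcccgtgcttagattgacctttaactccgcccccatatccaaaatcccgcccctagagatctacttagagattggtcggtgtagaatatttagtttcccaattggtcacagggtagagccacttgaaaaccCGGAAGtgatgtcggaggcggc
Mphosph10: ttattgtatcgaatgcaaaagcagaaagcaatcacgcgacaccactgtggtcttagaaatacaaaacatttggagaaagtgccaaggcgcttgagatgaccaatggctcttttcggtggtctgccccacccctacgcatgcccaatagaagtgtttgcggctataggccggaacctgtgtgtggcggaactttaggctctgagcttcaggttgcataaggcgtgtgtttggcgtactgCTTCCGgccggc
Imp3: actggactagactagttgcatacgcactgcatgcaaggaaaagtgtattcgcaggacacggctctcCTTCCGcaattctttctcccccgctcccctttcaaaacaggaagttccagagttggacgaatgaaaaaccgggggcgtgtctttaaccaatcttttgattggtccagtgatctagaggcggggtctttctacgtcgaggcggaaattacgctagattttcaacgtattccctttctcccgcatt

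On fibronectin the factors were higher as a group, by small amounts. Of the 48 genes 28 rose and 1, Nhp2, fell, by limma with an adjusted p of 0.05 over all genes tested, and 19 did not pass. Of all genes tested 40.1% passed, 19.9% by rising and 20.2% by falling. The median log2 change of the 48 was 0.17, against 0.00 over all genes, and 44 of the 48 changes were above 0. The largest rise was that of Rrp9, at 1.27-fold. Sample values did not overlap between coatings for 37 genes that were higher and 1 that was lower, where 27.4% and 25.9% of all genes behaved in these ways. In RNA from whole cultures, a different share of cells expressing a gene and a different amount of RNA per cell cannot be told apart.

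The mean over the 48 genes was 7.51, 7.47 and 7.50 in the collagen samples and 7.71, 7.63 and 7.65 in the fibronectin samples. The lowest fibronectin sample thus lay above the highest collagen sample. The mean over all tested genes lay between 5.93 and 5.96 in the 6 samples. The count of rises was 16 without fibronectin replicate 1, the sample with the highest mean, and 17 without collagen replicate 2, the one with the lowest. The shares of all genes that rose were then 15.1% and 14.9%, and the median changes were 0.15 and 0.17.

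**Figure D1:**
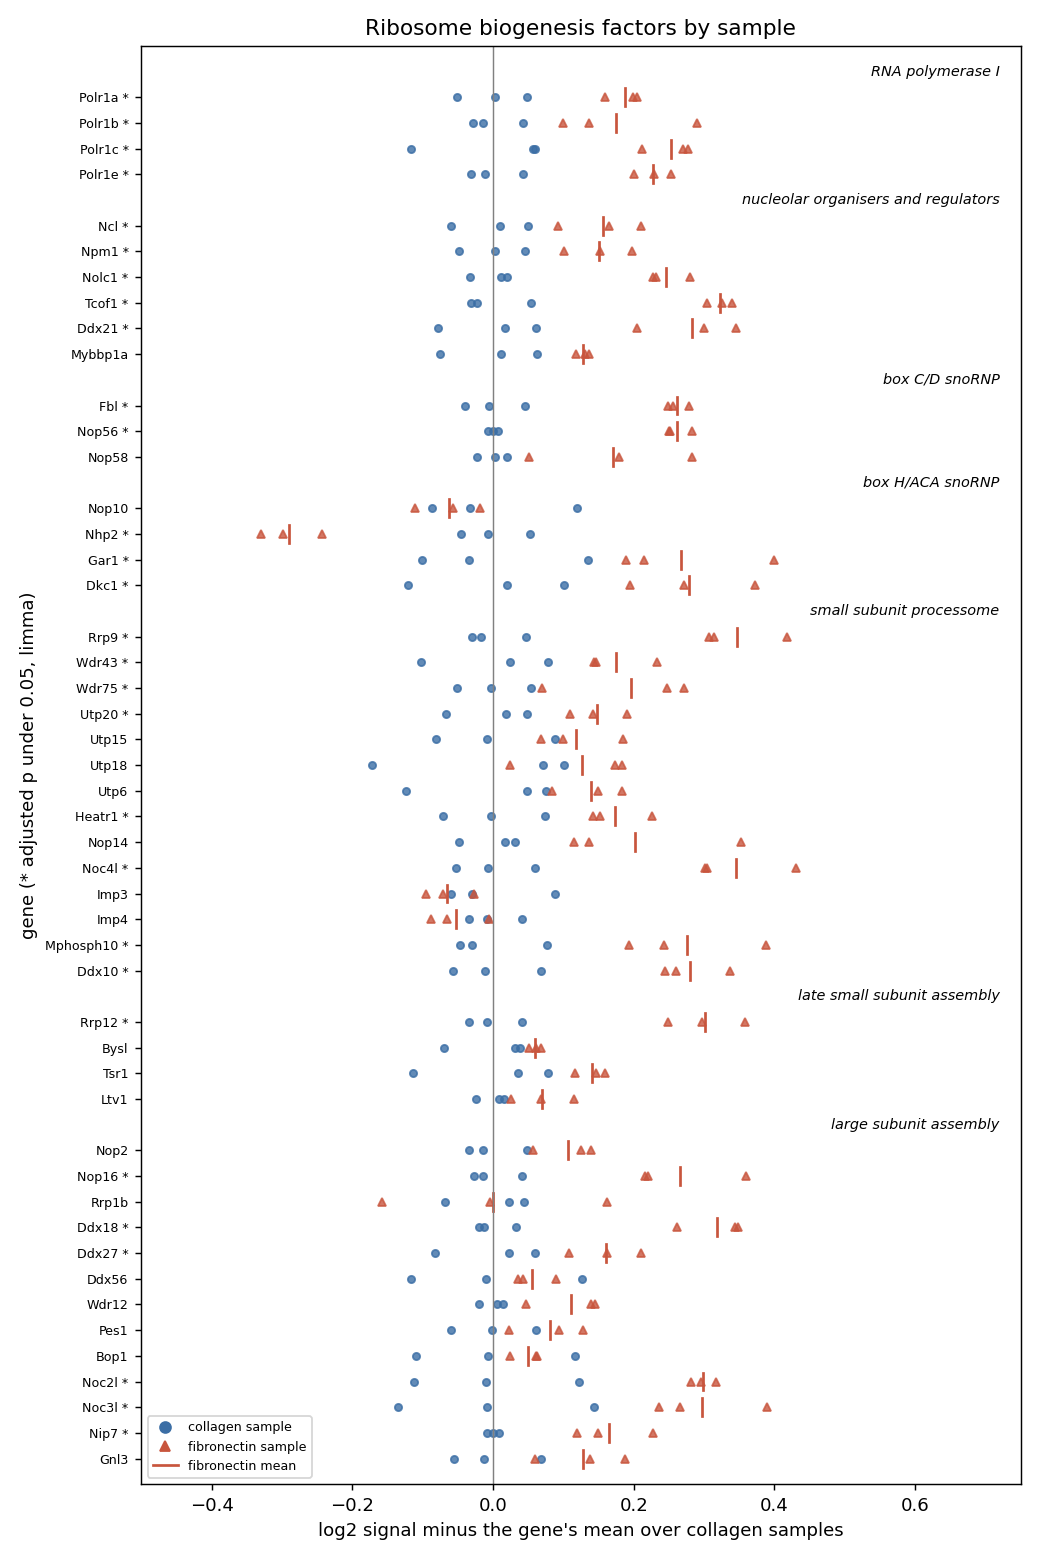
Log2 signal of each of the 48 genes in each sample, given as the difference from that gene's collagen mean, with 3 collagen samples (circles), 3 fibronectin samples (triangles) and the fibronectin mean (bar). Most fibronectin samples lie to the right of the collagen samples, by up to a mean of 0.35 for Rrp9, and Nhp2 lies to the left.

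Genes of RNA polymerase I rose in 4 of 4 cases, with changes between 0.18 and 0.25. Polr1e, a subunit that acts in initiation, had log2 signals of 5.97, 5.89 and 5.92 on collagen and 6.18, 6.13 and 6.15 on fibronectin. It rose 1.17-fold (log2 change 0.23, SE 0.04, adjusted p = 0.00502, limma). Polr1c, a subunit shared with RNA polymerase III, had signals of 8.16, 8.16 and 7.98 on collagen and 8.37, 8.38 and 8.31 on fibronectin. Collagen replicate 3 was the low one, and the groups did not overlap (log2 change 0.25, SE 0.06, adjusted p = 0.0116, limma). Polr1a, the largest catalytic subunit, had signals of 6.74, 6.69 and 6.79 on collagen and 6.94, 6.90 and 6.94 on fibronectin, a rise of 0.19. Polr1b, the second catalytic subunit, rose by 0.18, with an adjusted p of 0.0482 by limma that lay close to the threshold, and it passed in 6 of 15 alternatives. With 1 sample left out it passed without fibronectin replicate 2 alone.

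Among 6 nucleolar organisers and regulators 5 rose. Tcof1, or treacle, which supports ribosomal DNA transcription, had signals of 5.61, 5.53 and 5.53 on collagen and 5.90, 5.88 and 5.86 on fibronectin. It rose 1.25-fold (log2 change 0.32, SE 0.04, adjusted p = 0.00107, limma), and its groups were far apart relative to their spread. Nolc1, a chaperone of snoRNPs, had 7.17, 7.13 and 7.18 on collagen and 7.44, 7.39 and 7.39 on fibronectin, a rise of 0.25. Ddx21, an RNA helicase that links RNA polymerase I with processing, had 6.51, 6.61 and 6.65 on collagen and 6.94, 6.80 and 6.89 on fibronectin, a rise of 0.28. Ncl (nucleolin) and Npm1 (nucleophosmin), abundant proteins of the nucleolus, rose by 0.16 and 0.15, with adjusted p of 0.0450 and 0.0397 by limma. Ncl passed in 7 of 15 alternatives. With 1 sample left out it failed without collagen replicate 2 or 3 or fibronectin replicate 1 or 3. With the mean of its probe sets its change was 0.32. Npm1 passed in 7 of 14 and, with 1 sample left out, without collagen replicate 1 alone. Mybbp1a, a nucleolar repressor of transcription, had a change of 0.13 and an adjusted p of 0.0707 by limma. Its samples did not overlap and were higher on fibronectin, as in 27.4% of all genes tested.

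Of the 3 core proteins of box C/D snoRNPs 2 rose and Nop58 did not pass. Fbl (fibrillarin), the methyltransferase itself, had signals of 9.88, 9.79 and 9.83 on collagen and 10.09, 10.08 and 10.11 on fibronectin. It rose 1.20-fold (log2 change 0.26, SE 0.04, adjusted p = 0.00262, limma). Nop56, a scaffold of the particle, had 9.50, 9.49 and 9.49 on collagen and 9.78, 9.75 and 9.74 on fibronectin, a rise of 0.26 with no overlap. Nop58, its partner, had 0.17 and an adjusted p of 0.0628 by limma, with fibronectin replicate 2 the lowest of its group at 8.81. Nop58 passed in 4 of 15 alternatives, and its change was 0.23 without fibronectin replicate 2 (adjusted p = 0.0216, limma) and 0.11 without fibronectin replicate 1 (adjusted p = 0.179, limma).

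Of the 4 box H/ACA proteins 2 rose, 1 fell and 1 did not pass. Dkc1 (dyskerin), the pseudouridine synthase, had signals of 8.94, 9.08 and 9.16 on collagen and 9.43, 9.26 and 9.33 on fibronectin, a rise of 0.28 (adjusted p = 0.0163, limma). Gar1 had 7.61, 7.44 and 7.37 on collagen and 7.87, 7.69 and 7.66 on fibronectin, a rise of 0.27 (adjusted p = 0.0300, limma). The SD of Gar1 was 0.12 on each coating, and its nearest samples were 7.61 and 7.66. Without fibronectin replicate 1 neither passed (limma adjusted p of 0.0549 for Dkc1 and 0.0880 for Gar1). Gar1 also failed without collagen replicate 2 (limma adjusted p of 0.0885) or 3 (0.0903) and without the brightness filter (0.0766). Nhp2 (Entrez gene 52530), the RNA-binding subunit, had 9.73, 9.69 and 9.78 on collagen and 9.43, 9.49 and 9.40 on fibronectin. It fell 1.22-fold (log2 change -0.29, SE 0.05, adjusted p = 0.00246, limma), and its second probe set gave -0.27. Nop10, the smallest protein of the particle, had 10.12, 9.97 and 9.91 on collagen and 9.94, 9.98 and 9.89 on fibronectin, so that the coatings overlapped, and a change of -0.06 (adjusted p = 0.459, limma).

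The opposite changes within the particle were compared inside each sample, where a shift common to all probe sets of that sample cancels. A shift that depends on signal level would not cancel. The difference Dkc1 minus Nhp2 ran from -0.78 to -0.60 in collagen samples and from -0.23 to 0.00 in fibronectin samples, a shift of 0.57. The difference Gar1 minus Nhp2 shifted by 0.56. An exact two-sided permutation test gave p = 0.1 for each, the smallest that 3 against 3 samples allow, and the same after adjustment over the 4 pairs compared, which were chosen after their values were seen.

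**Figure D2:**
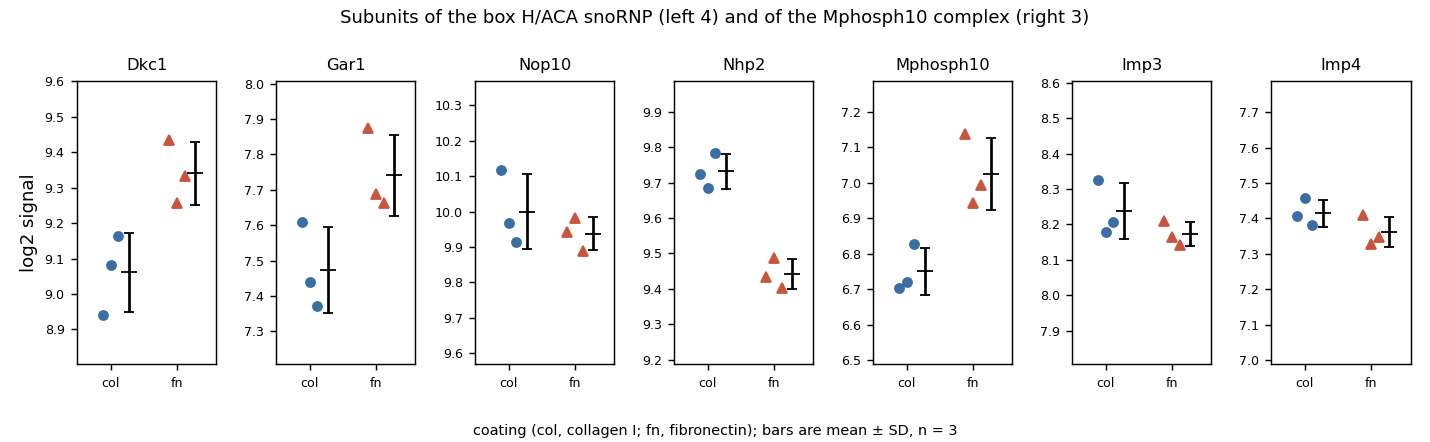
Log2 signal by sample of the box H/ACA proteins Dkc1, Gar1, Nop10 and Nhp2 and of Mphosph10, Imp3 and Imp4, on collagen (circles, n = 3) and fibronectin (triangles, n = 3), with mean and SD, each panel spanning the same range of log2 units. Dkc1, Gar1 and Mphosph10 are higher on fibronectin, Nhp2 is lower, and Nop10, Imp3 and Imp4 overlap.

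The largest rises by the brightest probe set, those of Rrp9 and Noc4l, were in the small subunit processome. The median change of the processome was 0.17, as over the 48. Of 14 of its genes 8 rose, 0 fell and 6 did not pass, and at an unadjusted p of 0.05 limma also placed 0 genes lower. Rrp9 (Entrez gene 27966), which binds the U3 snoRNA, had signals of 5.93, 5.85 and 5.86 on collagen and 6.30, 6.19 and 6.20 on fibronectin. Its log2 change was 0.35 (SE 0.05, adjusted p = 0.00131, limma). Noc4l, which works with Nop14 on the small subunit, had 6.32, 6.43 and 6.36 on collagen and 6.80, 6.67 and 6.67 on fibronectin, a change of 0.35. Ddx10, an RNA helicase, had 6.79, 6.91 and 6.83 on collagen and 7.18, 7.10 and 7.09 on fibronectin, a change of 0.28. With specific probe sets, which leave out types that can bind several transcripts, Noc4l had 0.12 and did not pass (adjusted p = 0.162, limma). In Rrp9, Noc4l and Ddx10 fibronectin replicate 1 was the highest sample.

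Processome proteins that act early, with transcription of ribosomal DNA, rose in 3 of 4 cases. These were Wdr43 (0.17), Wdr75 (0.20) and Heatr1 (0.17), with adjusted p between 0.0336 and 0.0467 by limma, and Utp15 had 0.12 and did not pass. These calls were near the threshold, and Wdr43, Wdr75 and Heatr1 passed in 8, 5 and 7 of 15 alternatives. With 1 sample left out Wdr43 passed without collagen replicate 1 alone, Wdr75 without fibronectin replicate 2 alone and Heatr1 without collagen replicate 3 alone. With the mean of probe sets Heatr1 had 0.087 and Wdr75 0.053, with adjusted p of 0.132 and 0.543 by limma, and the dimmer of 2 probe sets of Wdr75 gave -0.09. The mean for Heatr1 takes in a probe set below the brightness filter, with a collagen mean of 1.52. Mphosph10 had signals of 6.70, 6.72 and 6.83 on collagen and 7.14, 6.94 and 6.99 on fibronectin and rose by 0.28 (adjusted p = 0.0110, limma). Imp3, which binds Mphosph10 in 1 complex, had 8.33, 8.18 and 8.21 on collagen and 8.21, 8.17 and 8.14 on fibronectin, a change of -0.06. Imp4, of the same complex, had 7.41, 7.46 and 7.38 on collagen and 7.41, 7.33 and 7.35 on fibronectin, a change of -0.05. The samples of Imp3 and of Imp4 overlapped between coatings, and neither gene passed. Inside each sample Mphosph10 minus Imp3 shifted by 0.34 and Mphosph10 minus Imp4 by 0.33, each with an exact permutation p of 0.1. Utp20 rose by 0.15 and passed in 7 of 15 alternatives, with 1 sample left out without collagen replicate 3 alone, while Utp18, Utp6 and Nop14 had 0.13, 0.14 and 0.20, the last with an adjusted p of 0.0504 by limma.

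Among 4 factors of late small subunit assembly, Rrp12 was the one that passed. Rrp12, which acts in export of the small subunit, had signals of 5.24, 5.26 and 5.31 on collagen and 5.52, 5.57 and 5.63 on fibronectin. It rose 1.23-fold (log2 change 0.30, SE 0.05, adjusted p = 0.00212, limma). Bysl, Tsr1 and Ltv1, which ride on the late precursor, had changes of 0.06, 0.14 and 0.07. The limma adjusted p of these 3 lay between 0.0888 and 0.343. Their samples did not overlap and were higher on fibronectin, as in 27.4% of all genes tested.

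Of 13 large subunit factors 6 rose, 0 fell and 7 did not pass, and the median change was 0.13. Ddx18, an RNA helicase, had signals of 7.27, 7.22 and 7.22 on collagen and 7.58, 7.50 and 7.59 on fibronectin. It rose 1.25-fold (log2 change 0.32, SE 0.05, adjusted p = 0.00131, limma). Nop16 had 7.36, 7.37 and 7.43 on collagen and 7.75, 7.61 and 7.60 on fibronectin, a change of 0.27. Noc2l had 6.40, 6.27 and 6.16 on collagen and 6.59, 6.56 and 6.57 on fibronectin, a change of 0.30, with more spread on collagen (SD 0.12) than on fibronectin (SD 0.02). Noc3l, its partner, rose by 0.30 and passed in 12 of 15 alternatives. It failed without collagen replicate 2 or fibronectin replicate 1 (limma adjusted p of 0.0536 and 0.0600) and without the brightness filter (0.0506). Nip7 and the helicase Ddx27 rose by 0.17 and 0.16. Ddx27 passed in 6 of 15 alternatives, with 1 sample left out without collagen replicate 3 alone, and had 0.066 with the mean of probe sets (adjusted p = 0.387, limma). That mean takes in a probe set of Ddx27 below the brightness filter, with a collagen mean of 2.14 and a change of -0.03. Nip7 passed in 10 of 15 and failed without collagen replicate 2 or 3, without fibronectin replicate 1 or 3 and without the brightness filter. Pes1, Bop1 and Wdr12, which form the PeBoW complex needed for large subunit maturation, did not pass, at 0.08, 0.05 and 0.11. Also short of the threshold were the methyltransferase Nop2 (0.11), the GTPase Gnl3 (0.13), the helicase Ddx56 (0.06) and Rrp1b (0.00). At an unadjusted p of 0.05 limma placed 0 of the 13 genes lower.

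**Figure D3:**
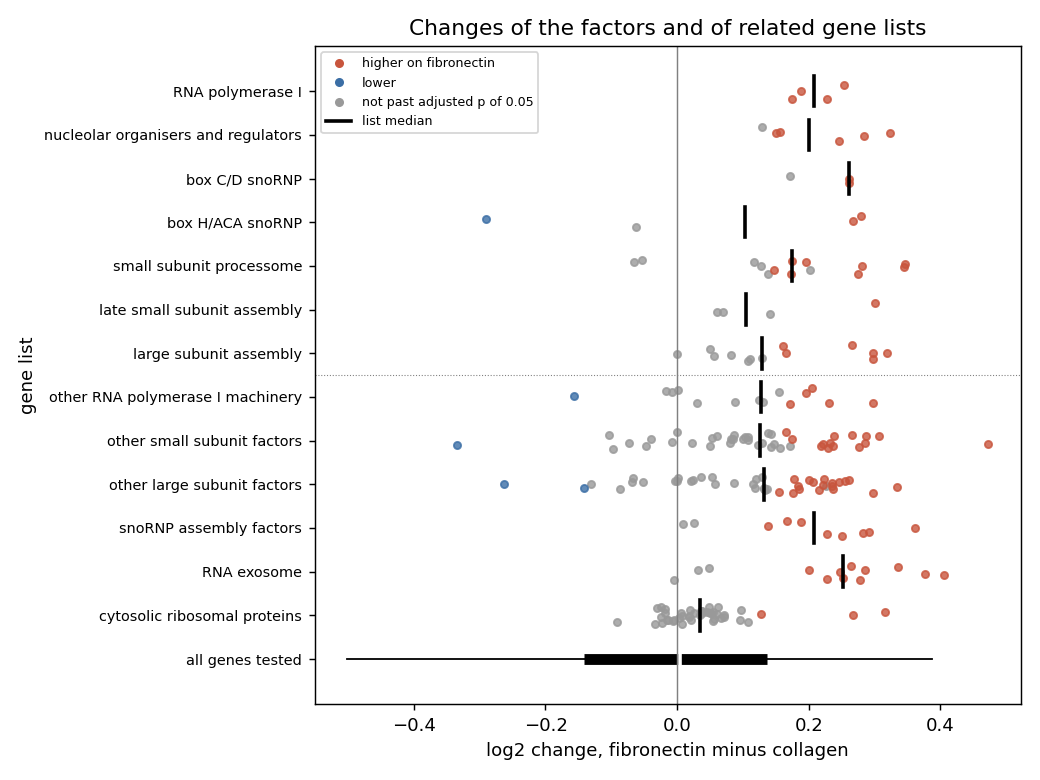
Log2 change, fibronectin minus collagen, of each tested gene in the 7 lists of factors above the dotted line and in 6 lists of related genes below it, with list medians as bars. The lowest line gives the median, quartiles and 5th to 95th percentile of all tested genes, and list medians run from 0.03 for ribosomal proteins to 0.26 for box C/D proteins.

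The array held 101 probe sets for the 48 genes, of which 94 were bright enough to be tested in a fit over single probe sets. In that fit 44 rose, or 46.8%, and 2 fell, against 17.7% and 16.6% of all probe sets with 1 gene. The 2 that fell were both probe sets of Nhp2. Of 33 genes with 2 or more tested probe sets, 8 had all of them higher, 1 had all lower, 17 had some but not all higher and 7 had no call. The sign differed between probe sets in 3, Nop10, Wdr75 and Bop1. In this fit 29 genes had at least 1 probe set higher, and 24 of them were among the 28. Polr1b, Wdr75, Utp20 and Ddx27 had none here, and Mybbp1a, Rrp1b, Tsr1, Utp15 and Utp6 had 1 or more without being among the 28.

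The brightest probe set, used for the counts given before, had the lowest change of its gene's probe sets in 15 of the 33 genes, the highest in 11 and neither in 7. One dimmer probe set of Polr1a had signals of 3.72, 3.44 and 3.21 on collagen and 4.79, 4.81 and 4.66 on fibronectin, a log2 change of 1.30 (SE 0.12, adjusted p = 0.000296, limma over probe sets) where the brightest gave 0.19 and another 0.09. For Ncl, probe sets at collagen means of 5.86 and 7.90 gave 0.50 and 0.43, where the brightest, at 10.5, gave 0.16 and one at 4.70 gave 0.12. Rrp1b had 0.00 by its brightest probe set and 0.30 and 0.37 by the others, which both passed. Mybbp1a had 0.13 and 0.34, and Utp15 had 0.12 and 0.35, and the dimmer one passed in each case. The brightest moved most in Noc4l (0.35, against 0.12, 0.14 and 0.27), Noc2l (0.30 against 0.07) and Nop16 (0.27 against 0.06). Probe sets of a gene can read different transcript ends, and which transcripts these read was not analysed here.

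**Figure D4:**
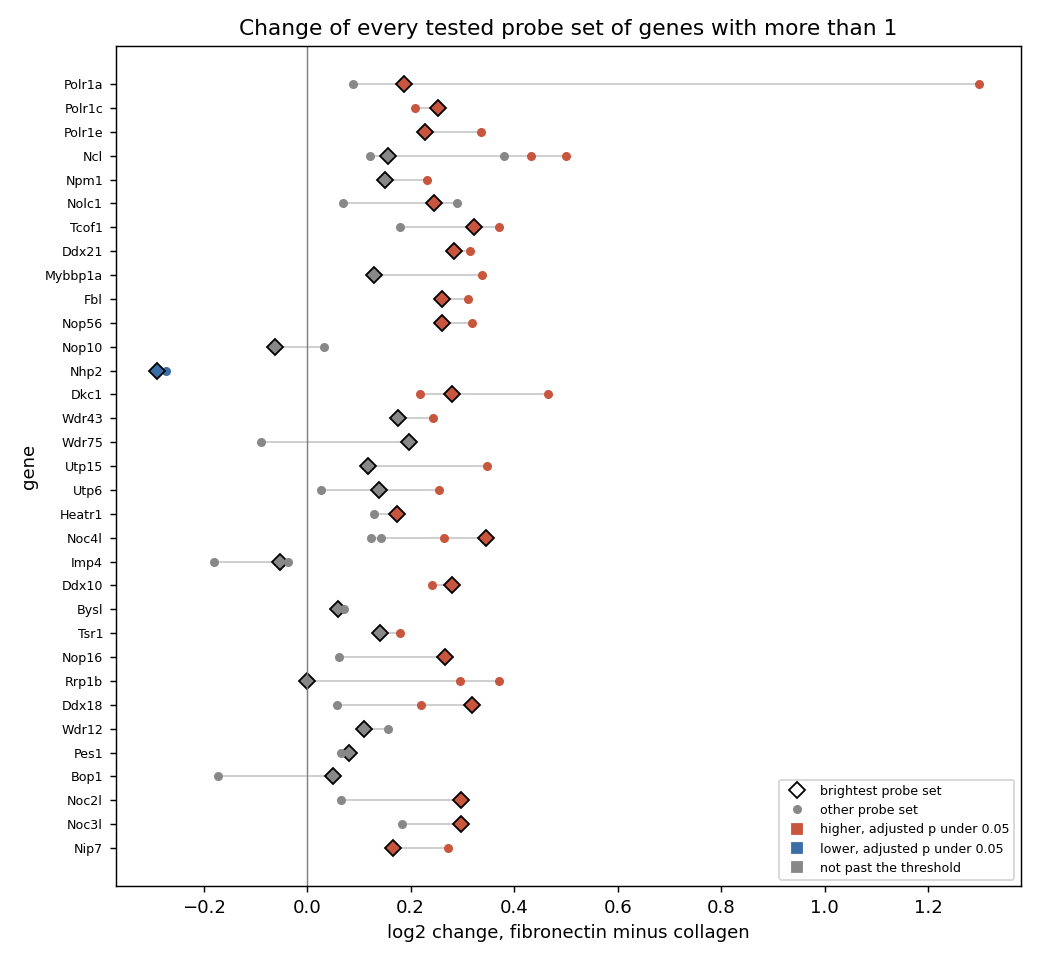
Log2 change, fibronectin minus collagen, of each tested probe set for the 33 genes with more than 1, with the brightest drawn as a diamond and calls of the probe set fit in colour. Polr1a reaches 1.30 and Ncl 0.50 through dimmer probe sets, and both probe sets of Nhp2 are below 0.

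Other genes of the pathway were taken from lists that leave out the 48. Of 122 tested in 5 lists, ribosomal proteins apart, 55 rose and 4 fell, or 45.1% and 3.28%, with a median change of 0.14. Of all genes tested 19.9% rose and 20.2% fell. Differences between the lists were not tested. The RNA exosome, which trims precursor ends, had 10 of 13 genes higher and 0 lower, with 0 lower also at an unadjusted p of 0.05 by limma, and a median of 0.25. Exosc8, Exosc7, Exosc2 and Exosc3 rose by 0.41, 0.38, 0.34 and 0.25. Among snoRNP assembly factors 8 of 10 rose, including the paired ATPases Ruvbl2 and Ruvbl1 (0.36 and 0.28), Rpap3 (0.23) and Naf1 (0.29), which helps to load box H/ACA particles.

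Of 14 other genes of RNA polymerase I transcription 5 rose and 1 fell, or 35.7% and 7.14%, against 19.9% and 20.2% of all genes tested. Rrn3, the initiation factor that couples the polymerase to growth signals, rose by 0.30, the subunit Twistnb by 0.23, the terminator protein Ttf1 by 0.20 and Taf1d by 0.20. Taf1c, a subunit of the same promoter selectivity factor as Taf1d, fell by 0.16. Among 42 other small subunit factors 14 rose, or 33.3%, with Nol10 at 0.47, Rcl1 at 0.28, Utp25 at 0.23 and Krr1 at 0.29. The kinase Riok3 fell by 0.33. Among 43 other large subunit factors 18 rose, or 41.9%, with Brix1 at 0.33, Ddx55 at 0.25, Rpf2 at 0.30 and Ebna1bp2 at 0.22. Zfp622 and Ddx54 fell by 0.26 and 0.14.

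Cytosolic ribosomal proteins are the building blocks of the subunits. Of 79 listed 44 had a probe set of their own, 43 were bright enough, 3 rose and 0 fell, and the median change was 0.03. The share that rose was 6.98%, against 19.9% of all genes tested. Of the 43 changes 31 were above 0, and samples did not overlap for 13 genes that were higher and 0 that were lower, against 27.4% and 25.9% of all genes. The difference from the 48 factors was not tested. Rpl14, Rpl12 and Rps3a1 rose by 0.32, 0.27 and 0.13. At an unadjusted p of 0.05 limma placed 0 of the 43 lower. Many of these probe sets are near the bright end of the array, and many ribosomal protein genes have near-identical pseudogenes, so their values are uncertain.

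Signs of cell division and of differentiation moved with the coating too. Of 7 cycling cell markers 5 were higher on fibronectin, with a median change of 0.42, and the mean log2 signal over the list was 8.79 to 8.84 in collagen samples and 9.13 to 9.16 in fibronectin samples. Mki67 rose by 0.45, and Myc, a transcription factor known to act on ribosome biogenesis genes, rose by 0.32. Of 8 differentiating muscle markers 7 were tested and 7 were lower, among them Myog at -0.83, and the list mean was 5.36 to 5.49 in collagen samples and 4.25 to 4.60 in fibronectin samples. The part of these shifts in the rise of ribosome biogenesis factors was not tested.

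The promoters of the 48 genes were searched for short motifs on both strands. RefSeq promoters, 250 bases before to 50 after a gene's start in GRCm38.p6, were held for 42 of the 48 genes, as 46 promoters. The Ets core CGGAAG was present in 27 of the 46 promoters, or 58.7%, against 30.8% of 11455 promoters of tested genes and 16.9% of all 32851. It was found in Rrp9, Ddx10, Nhp2, Mphosph10 and Imp3, shown at the start, and Ddx10 held 3 copies. Of 26 genes with the core 16 rose and Nhp2 fell, with a median change of 0.17, and of 16 genes without it 8 rose, with the same median of 0.17. The difference between these groups of genes was not tested.

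The E-box CACGTG, the site preferred by Myc with Max, was present in 9 of 46 promoters, or 19.6%, against 10.2% of promoters of tested genes and 7.15% of all. Of the 9 genes, Utp20 and Wdr43 rose, and the median change was 0.13, against 22 rises and a median of 0.20 among the 33 genes without it. The GC box GGGCGG was present in 73.9% of the promoters against 63.6% for tested genes and 35.7% of all, and CCAAT in 43.5% against 37.5% and 37.4%. AAGATGGC, a YY1 motif, was found in 2.17% against 4.56% and 2.75%, and TATAAA in 4.35% against 7.04% and 13.6%. No motif contains another, but some can share letters, such as GGGCGG with CGGAAG and CGGAAG with AAGATGGC. A match of letters is a description and does not show that a factor binds there.

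Some of these genes also contain snoRNA genes, so that protein and guide RNA come from the same locus. By RefSeq positions 7 of the 48 genes, or 14.6%, enclose at least 1 annotated snoRNA gene on either strand, against 2.23% of 10644 tested protein-coding genes. Nop56 encloses 5, including Snord57 and Snord110, Nop58 encloses 4, including Snord11 and Snord70, and Gnl3 and Wdr43 enclose 3 each. Ncl encloses Snora75 and Snord82, and Dkc1 and Tsr1 enclose 1 each. Of these 7 genes Ncl, Nop56, Dkc1 and Wdr43 rose, where 58.3% of all 48 rose. Among the 237 tested protein-coding genes that enclose a snoRNA gene 56 rose and 31 fell. Of all genes tested 19.9% rose and 20.2% fell. The snoRNAs themselves were not analysed here.

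The size of the group response depended on the processing more than its direction did. The share of the factors that rose, out of 48 or, with specific probe sets, out of 44, was above that of all tested genes as reported and in each of 15 alternatives that kept the threshold, from 33.3% against 15.1% without fibronectin replicate 1 to 77.1% against 27.2% with samples centred on their medians. Centring also turned the balance of calls over all genes from 49.6% to 64.4% higher, and with it 37 of the 48 rose. The factors were brighter on average than all genes tested. With the filter at the 75th percentile, which kept all 48, 66.7% of them rose. Of all genes tested 27.6% then rose and 23.3% fell. Of the 28 genes that rose 15 passed in every one of these 15 alternatives. These 15 were Polr1a, Polr1c, Polr1e, Nolc1, Tcof1, Ddx21, Fbl, Nop56, Rrp9, Mphosph10, Ddx10, Rrp12, Nop16, Ddx18 and Noc2l. The other 13 failed in at least 1 alternative. The fall of Nhp2 also passed in all 15, with changes between -0.31 and -0.24.

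**Figure D5:**
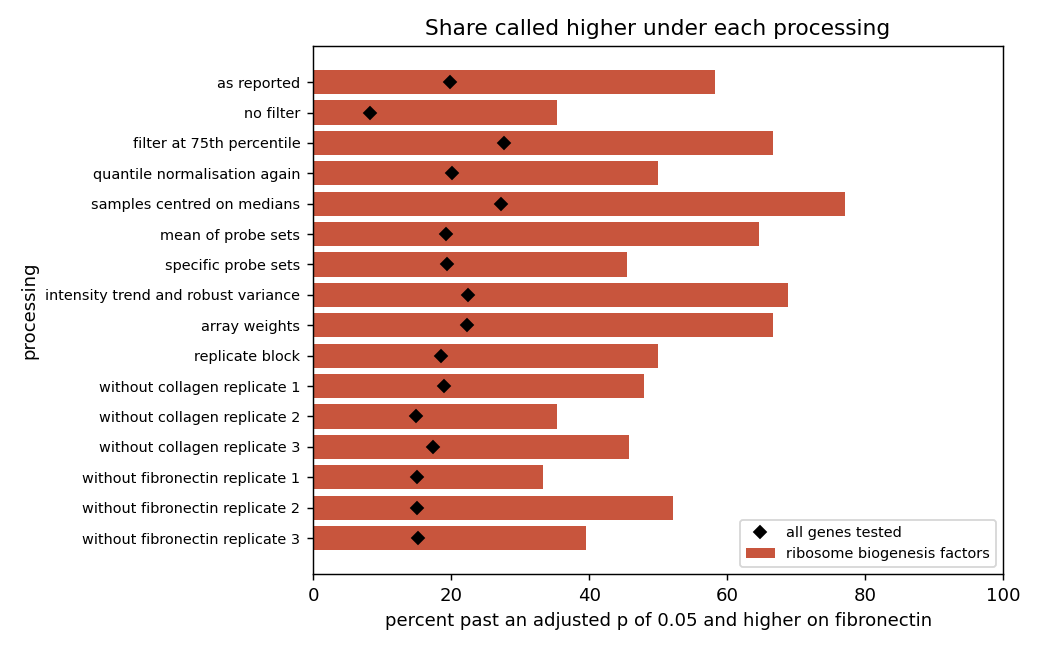
Percent of the ribosome biogenesis factors tested (bars, 48 genes, but 44 with specific probe sets) and of all tested genes (diamonds) that passed an adjusted p of 0.05 and were higher on fibronectin, as reported and under 15 alternatives. The bars range from 33.3% to 77.1% and each lies above its diamond.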

How the data were processed

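Total RNA from 6 samples was labelled with biotin and hybridised to an Affymetrix mouse array. The deposited table holds log2 signals per probe set. Per the submitters' processing notes the authors used RMA in Affymetrix Expression Console. RMA brings arrays to a common distribution, so a shift of nearly all genes in 1 direction would not be seen. No source used here gives versions, settings or scan dates, and no batch was examined. Values lay between -0.17 and 12.7.

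Of 45101 probe sets 34945 had 1 gene symbol, 932 had several and 9160 had none, besides 64 controls. Symbols followed the platform annotation, updated through RefSeq (GRCm38.p6), where 18032 of 18194 gene identifiers were found. Each gene was read by its brightest probe set and tested if its mean reached 2.33, which left 7252 genes out. limma 3.58.1 in R 4.3.3 (lmFit, eBayes, two-sided, no covariates, 4 residual and 3.81 prior degrees of freedom) compared 3 with 3 samples, and p-values were adjusted by Benjamini-Hochberg over the 10941 genes. It was tested on simulated data. Figures used Python 3.11.15 and matplotlib 3.10.9. Array signals give no molecule counts, so the number of arrays limits precision, with a median SE of 0.06 on the log2 scale.

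The 48 genes, the related lists, the tests and the alternatives were chosen with earlier results of these data known. Of 206 related genes listed 166 were matched. Genes shown by sample were, in each list of factors, up to 3 past the threshold with the smallest p, and any gene past it against the median direction, besides Nop10, Mphosph10, Imp3 and Imp4, which were chosen after their values were seen. From each related list up to 4 genes per direction were named, by smallest p. Alternatives were other filters, scalings, probe set choices, variance models, a block for the replicate number, array weights, each sample left out and an adjusted p of 0.01.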

Additional observations from a re-analysis of the deposited data

How the results depend on the processing

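Array signals near the background compress changes, and 3 samples per coating allow no exact permutation p under 0.1. The 28 rises of ribosome biogenesis factors were 17 without a brightness filter, where more genes share the adjustment, 13 at an adjusted p of 0.01, and between 16 and 25 with 1 sample left out. Without the filter 35.4% of the factors rose, against 8.26% of all genes tested. With 1 sample left out 33.3% to 52.1% of the factors rose, against 14.9% to 19% of all genes. No share over all genes was taken at an adjusted p of 0.01, so counts at that threshold were not compared with all genes. The 58 rises among other pathway genes were 26 at an adjusted p of 0.01 and between 43 and 57 with 1 sample left out. Their 4 falls were 2 without the filter, with samples centred and at an adjusted p of 0.01, 1 with specific probe sets, and 2 to 3 with 1 sample left out. With samples centred the median change of the 48 genes was 0.23. The log2 change of Wdr75 was -0.090 with specific probe sets, which use its dimmer one. For the direction of the 48 genes, 6 had a change on either side of 0 among the alternatives (Nop10, Wdr75, Imp4, Rrp1b, Ddx56 and Bop1).

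Deviations of samples with the same replicate number correlated at 0.10, -0.01 and 0.08, and those of samples with unlike numbers between -0.14 and 0.10. With 3 samples per coating these values cannot show whether the samples were paired. With the replicate number as a block 24 of the 48 genes rose and Nhp2 fell, and 55 other pathway genes rose and 2 fell. Of all genes tested 18.5% then rose and 19.7% fell.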
